A study of Mus musculus with 9 samples.

Results

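The 34 genes described here are markers of cumulus and granulosa cells, the somatic cells that surround the mammalian oocyte, and all 34 were found among the 30153 genes of RNA-seq libraries from ovulated mouse eggs. They were listed by name, as genes known for roles in these cells, but with earlier results of these data known. The libraries came from metaphase II (MII) oocytes, the eggs arrested in the second meiotic division that are released at ovulation. All females were 4 weeks old, of mixed background and of the genotype Sycp3CreERT2/+; Rosa26nT-nG/+, so every group carried the same alleles: a CreERT2 recombinase named for the meiotic gene Sycp3 and a reporter that switches from a red to a green nuclear protein once Cre has acted. Females received 5 IU PMSG and, 48 h later, 5 IU hCG, and cumulus-oocyte complexes were taken from the oviduct 13 h after hCG. A 1 min incubation in 0.3 mg/ml hyaluronidase was used to strip the cumulus cells, and the bare eggs were hand-picked by fluorescence as GFP High, GFP Low or RFP, with 3 libraries in each group. GFP High pools were of 15, 15 and 16 eggs, GFP Low pools of 49, 52 and 57 and RFP pools of 87, 88 and 100, given by group and not by library. Nothing in the labels says that the replicates came from separate animals, so the p-values below measure the spread between these libraries, which may be partly technical.

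Cumulus cells are the granulosa cells in direct contact with the oocyte, and they exchange small molecules with it through gap junctions. After the ovulatory surge of luteinizing hormone, or hCG in its place, granulosa cells release EGF-like peptides, and cumulus cells then make prostaglandins and lay down a hyaluronan matrix in which the cumulus expands. The matrix is held together by proteins that bind hyaluronan or its carriers, and hyaluronidase dissolves it. Granulosa cells also make estrogen and the hormones inhibin and activin, and turn to progesterone synthesis as they luteinize.

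Library totals lay between 19381677 and 27746256 counts, and levels are given as CPM, each library's counts relative to its total, scaled by the trimmed mean of M-values (TMM). The limit set by 3 counts was between 0.108 and 0.154 CPM, and a gene listed at 0 is known only to lie below it, for counting error alone. The 12 oocyte genes examined beside the members, which include Zp3 and Gdf9, were at 1 CPM or more in all libraries, and their summed level ran from 8016 to 9679 CPM. The 34 members together reached 119.3 to 254.7 CPM, most of it from Nr5a2.

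The members fell into 4 classes by their level across the 9 libraries. Nr5a2, Cyp19a1, Runx2 and Kitl were at 1 CPM or more in every library. At the other end, 9 members stayed under 1 CPM everywhere: Cd44, Areg, Ereg, Amh, Amhr2, Foxl2, Pgr, Npr2 and Snap25. Of the 21 between, 12 had their highest 3 values in the same 3 libraries, GFP High 1, GFP Low 1 and RFP 2: Vcan, Tnfaip6, Ptx3, Ptgs2, Btc, Inha, Inhba, Inhbb, Fst, Grem1, Nr5a1 and Gja1. These 12 were set apart after their values were seen, and they are called the co-varying genes below; what follows about them is a description with no test. The remaining 9 (Has2, Adamts1, Cyp11a1, Star, Hsd3b1, Fshr, Lhcgr, Runx1 and Sfrp4) passed 1 CPM in some libraries in another order.

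**Figure D1:**
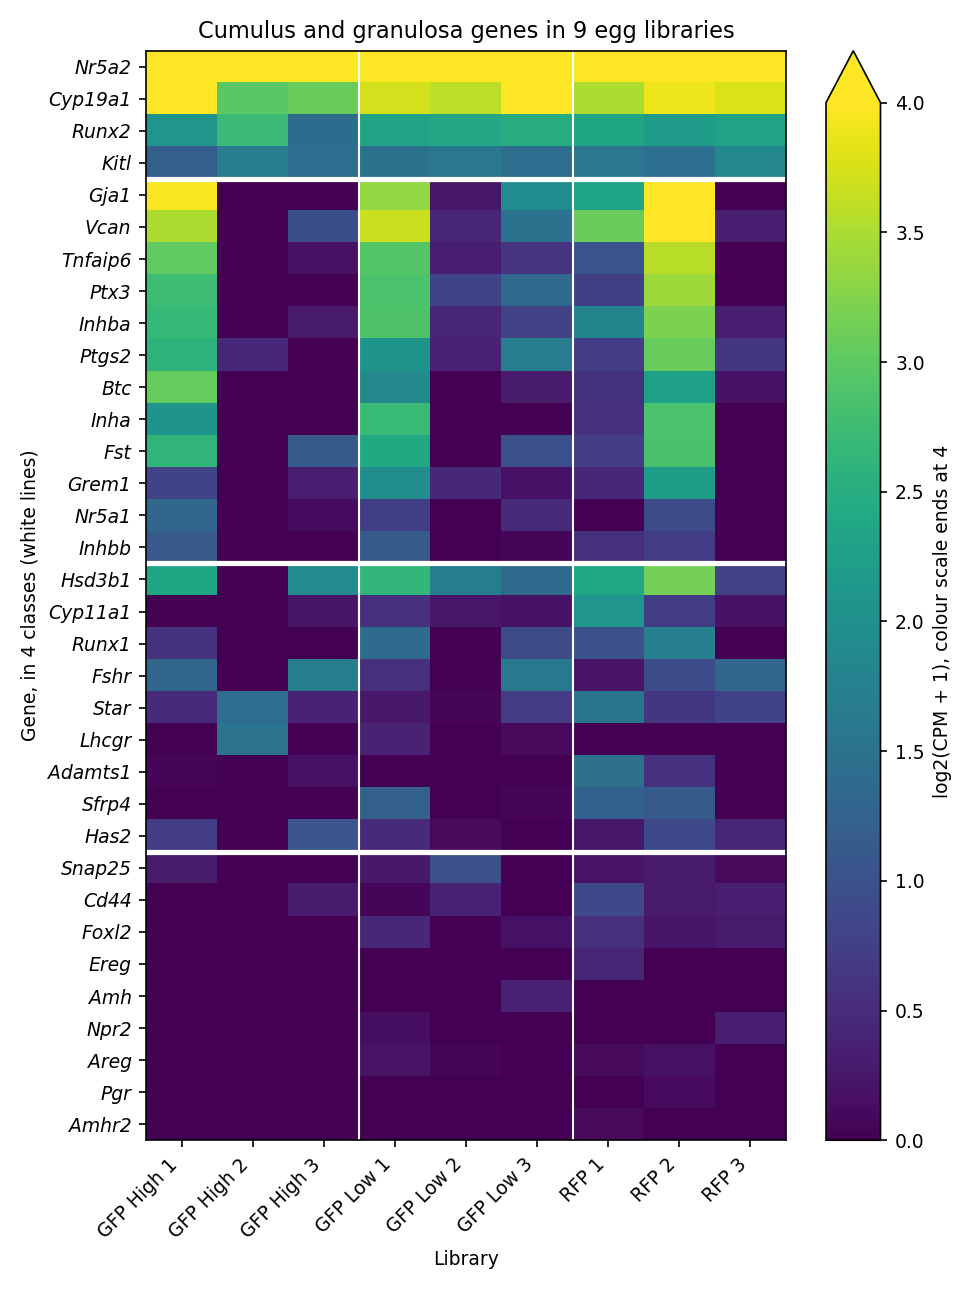
Level of each of the 34 members (rows) in the 9 libraries (columns), as log2(CPM + 1), with the colour scale ending at 4 and white horizontal lines between the 4 classes. The co-varying genes in the second block are bright in GFP High 1, GFP Low 1 and RFP 2 and dark in GFP High 2 and RFP 3, while the 4 genes of the top block are present throughout.

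The start regions of 3 co-varying genes and of 1 gene present in every library are shown to set the 2 classes side by side. RefSeq windows on GRCm38.p6, from 250 bases before to 50 bases after a transcript start, were matched to 26 of the 34 members, giving 31 windows. Capitals mark the motif found. In Ptgs2 and Gja1 it is the core of the cAMP response element (TGACGT, read on either strand), and in Inhba and Kitl it is TATAAA, the letters of the TATA box. Motifs were matched by letters alone, whatever their distance from the start. The Ptgs2 window is chr1:150099781-150100080 (+ strand), with the element on the opposite strand and just downstream of the annotated start. The Gja1 window is chr10:56377050-56377349 (+ strand), with the element 201 bases before the start. The Inhba window is chr13:16011601-16011900 (+ strand), with TATAAA 91 bases before the start. The Kitl window is chr10:100015571-100015870 (+ strand), with TATAAA 25 bases before the start.
Ptgs2: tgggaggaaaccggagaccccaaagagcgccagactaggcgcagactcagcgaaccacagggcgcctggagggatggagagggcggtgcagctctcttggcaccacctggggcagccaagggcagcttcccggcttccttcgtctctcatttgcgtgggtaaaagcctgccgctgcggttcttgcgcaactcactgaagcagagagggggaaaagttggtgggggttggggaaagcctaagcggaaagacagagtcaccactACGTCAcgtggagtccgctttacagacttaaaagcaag
Gja1: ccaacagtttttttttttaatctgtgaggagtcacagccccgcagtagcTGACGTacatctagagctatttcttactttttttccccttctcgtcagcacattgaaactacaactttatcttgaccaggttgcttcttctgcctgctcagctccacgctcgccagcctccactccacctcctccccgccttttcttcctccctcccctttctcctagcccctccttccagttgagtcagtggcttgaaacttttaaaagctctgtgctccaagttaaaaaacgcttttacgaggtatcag
Inhba: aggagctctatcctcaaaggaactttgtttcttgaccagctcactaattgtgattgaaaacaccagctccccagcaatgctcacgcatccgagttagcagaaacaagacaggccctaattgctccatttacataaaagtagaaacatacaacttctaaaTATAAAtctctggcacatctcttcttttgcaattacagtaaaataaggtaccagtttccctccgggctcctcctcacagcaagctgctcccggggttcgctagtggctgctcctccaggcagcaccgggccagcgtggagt
Kitl: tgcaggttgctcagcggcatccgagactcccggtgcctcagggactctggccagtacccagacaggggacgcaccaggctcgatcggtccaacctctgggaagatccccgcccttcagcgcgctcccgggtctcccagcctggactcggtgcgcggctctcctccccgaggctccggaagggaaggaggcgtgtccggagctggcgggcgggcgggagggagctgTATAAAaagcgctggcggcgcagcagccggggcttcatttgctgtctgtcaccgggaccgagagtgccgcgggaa

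The 3 motifs searched on both strands were not shared by the co-varying genes. TGACGT was found in 3 of the 31 member windows (9.68%), those of Areg, Gja1 and Ptgs2, beside 7.51% of all 32851 windows of this length. CAAGGTCA, a site bound by NR5A factors such as the members Nr5a1 and Nr5a2, was found in 1 member window (3.23%), that of Amhr2, beside 1.56% of all windows. TATAAA was in 8 member windows (25.8%), beside 13.6% of all, and these belonged to Adamts1, Areg, Cyp19a1, Inhba, Kitl, Nr5a2 and Pgr. Of the 10 windows that belong to co-varying genes, 2 held TGACGT, none held CAAGGTCA and 1 held TATAAA. The absence of a match says only that those letters are not in the window.

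Among the genes of the expanded matrix, Vcan, which encodes the hyaluronan-binding proteoglycan versican (chr13:89655312-89742509, - strand), had 287, 0 and 21 counts in replicates 1, 2 and 3 of GFP High. The 3 GFP Low replicates had 229, 9 and 51 counts, and the RFP replicates had 196, 341 and 7. Every group therefore held a library with 229 counts or more and another with 9 or fewer. As CPM the mean ± SD of the 3 GFP High libraries was 3.79 ± 5.77, that of the GFP Low libraries 4.65 ± 6.20 and that of the RFP libraries 7.56 ± 7.36 (n = 3 each), so the SD was close to or above the mean in each. In a bulk library, fewer cumulus cells and less of a transcript in each cannot be told apart.

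Tnfaip6 encodes TSG-6, which transfers heavy chains of inter-alpha-inhibitor onto hyaluronan (chr2:52038009-52056686, + strand). Its reads numbered 197, 0 and 3 in replicates 1, 2 and 3 of GFP High, 129, 7 and 15 in those of GFP Low, and 28, 249 and 0 in those of RFP. The same 3 libraries stood above all others, and RFP 1 came next at 1.06 CPM against 10.9 CPM in RFP 2. Ptx3, the pentraxin that cross-links those heavy chains, had 159, 122 and 221 counts in GFP High 1, GFP Low 1 and RFP 2 and at most 44 in any other library. Both genes lacked any read in GFP High 2 and RFP 3.

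Has2, the hyaluronan synthase of cumulus cells, was low in all libraries and did not have the same 3 highest libraries as Vcan, Tnfaip6 and Ptx3. It reached 24 counts in GFP High 3, 19 in RFP 2 and 18 in GFP High 1, and its highest level was 1.07 CPM. GFP Low 1 had 8 counts of Has2, so the order of its libraries rests on few reads. Adamts1, a protease that cleaves versican, had 47 counts in RFP 1 and 11 in RFP 2, at most 3 in the GFP High libraries and none in GFP Low. Cd44, a hyaluronan receptor, had 22 counts in RFP 1 and at most 8 elsewhere. Summed over these 6 matrix genes, the level was 24.0, 0 and 2.51 CPM in GFP High 1, 2 and 3, then 25.1, 1.77 and 3.97 CPM in GFP Low 1, 2 and 3, and 12.01, 37.2 and 0.854 CPM in RFP 1, 2 and 3. The group means of this sum were 8.85 ± 13.2, 10.3 ± 12.9 and 16.7 ± 18.6 CPM in the same order (SD, n = 3), and the 3 groups overlapped widely. Each mean depended most on 1 library: without GFP High 1 it was 1.25 CPM, without GFP Low 1 it was 2.87 CPM and without RFP 2 it was 6.43 CPM. The RFP mean depended less on a single library, since RFP 1 also held 12.01 CPM.

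Of the signals that set off expansion, Ptgs2 and Btc had the same 3 highest libraries by CPM as Vcan, Tnfaip6 and Ptx3. Areg and Ereg were almost absent. Ptgs2, the inducible cyclooxygenase of prostaglandin synthesis, had 138, 9 and 0 counts in GFP High 1, 2 and 3, 62, 8 and 62 in GFP Low 1, 2 and 3, and 17, 168 and 15 in RFP 1, 2 and 3. It was the one co-varying gene with any read in GFP High 2, at 9 counts. Btc, the EGF-like ligand betacellulin, had 202 counts in GFP High 1, 87 in RFP 2 and 52 in GFP Low 1, and at most 13 in any other library. Areg (amphiregulin) never passed 3 counts and Ereg (epiregulin) was seen 9 times, all in RFP 1.

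The inhibin and activin genes had the same 3 highest libraries, in differing order among the 3. Inha, the alpha subunit that makes inhibin, had 88, 108 and 144 counts in GFP High 1, GFP Low 1 and RFP 2, 12 in RFP 1 and none in the other 5 libraries. Inhba, which encodes the beta A subunit shared by inhibin A and activin A, had 149, 125 and 188 counts in those 3 libraries, 66 in RFP 1 and at most 20 elsewhere. Inhbb, the beta B subunit, had 32, 23 and 15 counts in the 3 libraries and at most 12 elsewhere. Fst, the activin-binding protein follistatin, had 141, 86 and 142 counts there and at most 27 in any other library. Grem1, an antagonist of bone morphogenetic proteins that cumulus cells make in response to the oocyte, had 84 counts in RFP 2 and 56 in GFP Low 1 but only 21 in GFP High 1.

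Anti-Müllerian hormone and its receptor were near or below the limit of detection. Amh was seen 8 times, all in GFP Low 3, and Amhr2 2 times, both in RFP 1. Both are products of granulosa cells in growing follicles.

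Genes of contact with the oocyte divided between classes. Gja1, which encodes connexin 43, the gap junction protein between cumulus cells (chr10:56377330-56402513, + strand), had 400, 0 and 0 counts in GFP High 1, 2 and 3, 180, 5 and 79 in GFP Low 1, 2 and 3, and 105, 381 and 0 in RFP 1, 2 and 3. Its group means were 4.84 ± 8.39, 4.10 ± 4.65 and 6.91 ± 8.74 CPM for GFP High, GFP Low and RFP (SD, n = 3). Npr2, the receptor through which cumulus cells hold meiotic arrest, had 7 counts in RFP 3, 2 in GFP Low 1 and none elsewhere. Kitl, the granulosa ligand of the oocyte's Kit receptor, was instead found at similar low levels everywhere and is described with the genes present in all libraries.

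Summed over the 12 co-varying genes, the level was 67.4, 60.9 and 89.6 CPM in GFP High 1, GFP Low 1 and RFP 2. It was 18.8 CPM in RFP 1, 11.6 CPM in GFP Low 3, 2.86 CPM in GFP High 3, 2.61 CPM in GFP Low 2, 1.23 CPM in RFP 3 and 0.365 CPM in GFP High 2. That every group contained 1 library of the highest 3 was fixed by how the 12 genes were set apart. The lowest library of each group was under 3 CPM. In GFP High 2, 27 of the 34 members had no read at all, against 5 in each of GFP Low 1, RFP 1 and RFP 2. The 7 that were read there were Nr5a2, Cyp19a1, Runx2, Kitl, Star, Lhcgr and Ptgs2.

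**Figure D2:**
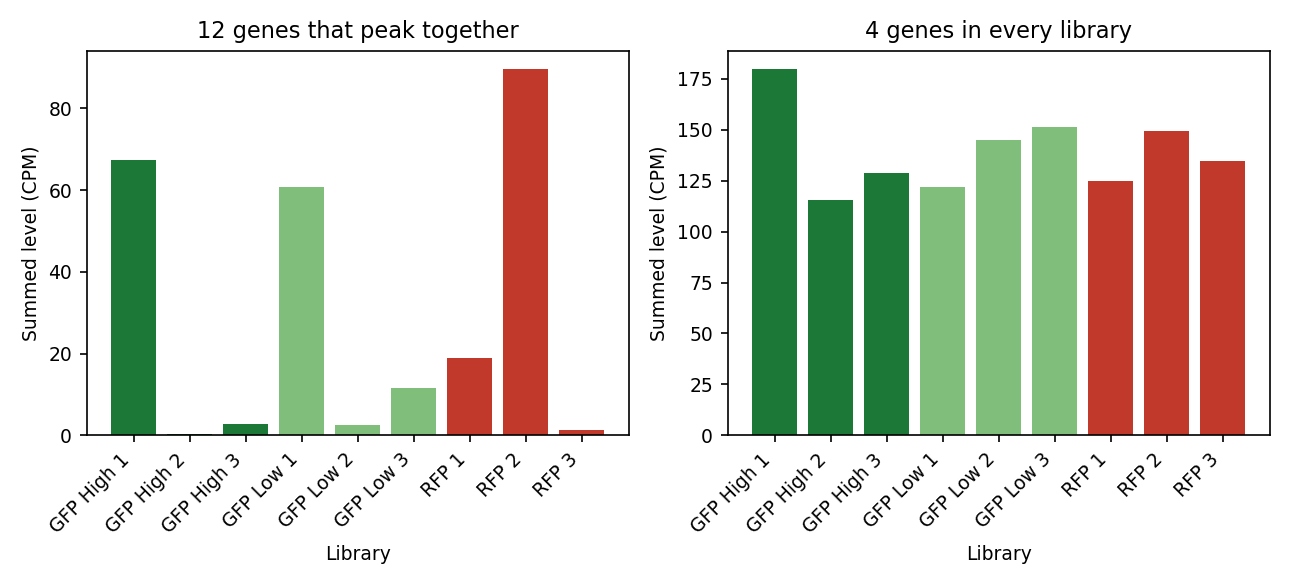
Summed CPM in each library of the 12 co-varying genes (left) and of the 4 members present in every library (right), with bars coloured by group and 1 bar per library. The left sum runs from 0.365 CPM in GFP High 2 to 89.6 CPM in RFP 2. It has 1 tall bar in each group, while the right sum has no library near 0. Both patterns are fixed by how the 12 and the 4 genes were chosen.

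The make-up of this summed level was compared between the 3 libraries that held most of it. Gja1 took 21.6%, 15.2% and 18.7% of the 12 genes' summed CPM in GFP High 1, GFP Low 1 and RFP 2, and Vcan took 15.5%, 19.3% and 16.7%. Gja1 and Vcan were the top 2 genes in all 3 libraries. Fst, Vcan and Inhba differed least in level, by 1.41, 1.44 and 1.53 times between the highest and the lowest of the 3 libraries. Grem1 differed most, by 4.84 times, with 1.13% of the sum in GFP High 1 against 4.73% in GFP Low 1, followed by Btc, by 2.75 times, with 10.9% in GFP High 1 against 4.39% and 4.26% in GFP Low 1 and RFP 2. These shares are of reads and are not corrected for transcript length.

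**Figure D3:**
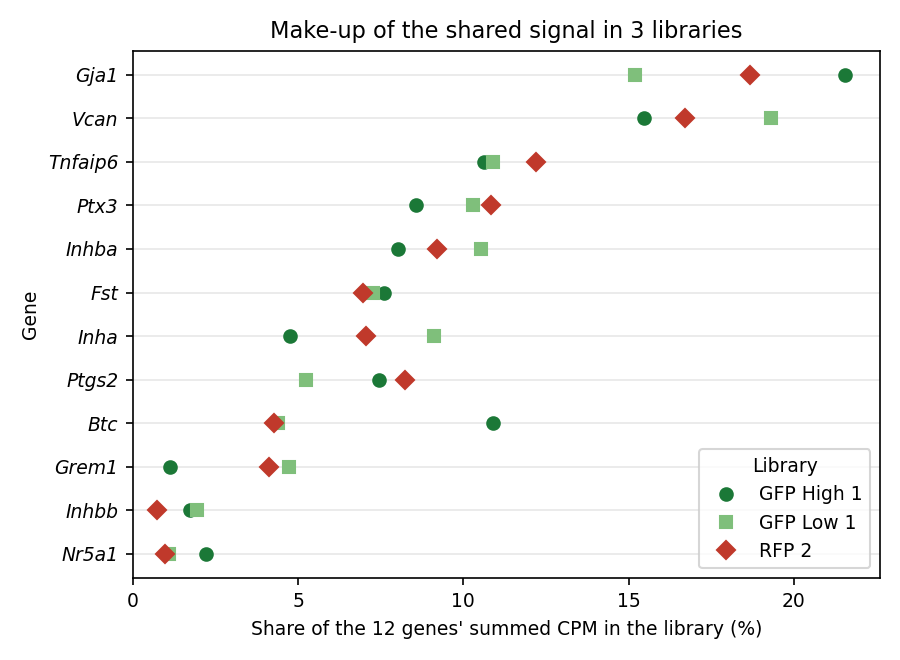
Share of the 12 co-varying genes' summed CPM taken by each gene (percent, horizontal axis) in GFP High 1 (circles), GFP Low 1 (squares) and RFP 2 (diamonds). The symbols lie close together for Fst and Tnfaip6, while Btc stands apart in GFP High 1 at 10.9% and Grem1 is lowest there at 1.13%.

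RFP 1 carried another mix. Its 12-gene sum was 18.8 CPM, of which Vcan alone made 39.7%, and Tnfaip6 and Ptx3 only 5.67% and 3.64%. RFP 1 held the highest value of 8 members, none of them a co-varying gene. These were Cyp11a1, Adamts1, Star, Cd44, Sfrp4, Foxl2 (12 counts in RFP 1), Ereg (9 counts) and Amhr2 (2 counts). The co-varying genes were set apart by having their highest 3 values in other libraries. A lower 12-gene sum in RFP 1, and its peaks only in other members, therefore follow from that choice. The summed theca and stroma list (6 of its 7 genes found) was also highest in RFP 1, at 10.5 CPM against 0.509 to 3.21 CPM in the other libraries. Within that list Col1a1 had 73 counts and Col3a1 75 in RFP 1, and at most 8 and 4 in any other library, and Col1a2 and Pdgfra were highest there too, while Dcn was highest in GFP High 3 and the theca enzyme Cyp17a1 had 3 counts, all in RFP 3. The oviduct epithelium list summed to between 3.30 and 12.4 CPM with its highest value in RFP 1, where its keratin Krt18 had 49 counts, against at most 5 elsewhere. Its other genes peaked in other libraries, Krt8 in GFP High 3 and Epcam, Pax8 and Ovgp1 in RFP 2. The immune list summed to between 0.411 and 1.92 CPM, highest in GFP High 3, with Cd68 at up to 36 counts and Ptprc at up to 10. The endothelial list, 3 of whose 5 genes were at 1 CPM or more in every library, summed to between 60.3 and 81.2 CPM, highest in GFP High 1. The part of these other cells in the members' values was not tested.

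Among the steroid genes, Cyp19a1 was present throughout and the other 3 were uneven. Cyp11a1, the side-chain cleavage enzyme that begins steroid synthesis, had 85 counts in RFP 1 and 15 in RFP 2, and at most 9 in any GFP library. Star, which delivers cholesterol to that enzyme, was read in all 9 libraries, with 51 counts in RFP 1, 42 in GFP High 2 and between 1 and 20 in the rest. GFP High 2 lacked nearly all co-varying genes, so Star did not share their order. Hsd3b1, which makes progesterone from pregnenolone, was at 7.95 CPM in RFP 2, 5.29 CPM in GFP Low 1, 4.22 CPM in RFP 1 and 4.14 CPM in GFP High 1, with no read in GFP High 2. Hsd3b1 has near-identical paralogs, so its count is uncertain, and Cyp11a1 shares 145 bp of exon with the same-strand gene Gm17322, which reached 235 counts.

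The gonadotropin receptors did not follow the co-varying genes. Fshr, the receptor for follicle-stimulating hormone, was highest in GFP High 3 at 2.24 CPM (50 counts), then in GFP Low 3 at 2.06 CPM (57 counts), GFP High 1 at 1.49 CPM and RFP 3 at 1.48 CPM. Lhcgr, the receptor for luteinizing hormone, had 46 counts in GFP High 2, the library that lacked most other members, and at most 6 elsewhere. Pgr, the progesterone receptor that granulosa cells induce at ovulation, had 2 counts in all, both in RFP 2.

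Of the transcription factors, Nr5a1 (steroidogenic factor 1) was a co-varying gene with 41, 13 and 20 counts in GFP High 1, GFP Low 1 and RFP 2 and at most 11 elsewhere. Runx1 had 53 counts in RFP 2, 32 in GFP Low 1, 26 in RFP 1 and 25 in GFP Low 3, and none in GFP High 2 or 3, GFP Low 2 or RFP 3. Foxl2, which maintains granulosa identity, had at most 12 counts. Sfrp4, a secreted Wnt modulator of luteinizing cells, had 26, 36 and 27 counts in GFP Low 1, RFP 1 and RFP 2 but none in GFP High 1. Snap25, a vesicle fusion protein reported in cumulus cells, had 25 counts in GFP Low 2 and at most 6 in the others.

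The 4 members present in every library varied far less. Nr5a2 encodes LRH-1, a nuclear receptor of granulosa cells (chr1:136842571-136960448, - strand). Its level was 157.2, 100.8 and 118.1 CPM in GFP High 1, 2 and 3, 103.7, 127.4 and 127.5 CPM in GFP Low 1, 2 and 3, and 108.3, 130.0 and 115.5 CPM in RFP 1, 2 and 3. GFP High 2, where 27 members were at 0, still held 2486 Nr5a2 reads. Per kb of transcript Nr5a2 averaged 20.5 CPM, and it was the highest member in each library. Cyp19a1 averaged 2.71 CPM per kb, with 3.09 in RFP 2, where Tnfaip6 reached 6.40, Inha 4.29 and Ptx3 3.62 CPM per kb.

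Cyp19a1 encodes aromatase, which converts androgens to estrogens (chr9:54165937-54268110, - strand). It was at 18.1, 6.85 and 7.38 CPM in GFP High 1, 2 and 3, 12.2, 11.1 and 17.7 CPM in GFP Low 1, 2 and 3, and 10.4, 14.0 and 12.7 CPM in RFP 1, 2 and 3. Its highest value was in GFP High 1, but GFP Low 3 lay just below it and above both GFP Low 1 and RFP 2. The group means were 10.8 ± 6.36, 13.7 ± 3.55 and 12.3 ± 1.82 CPM in GFP High, GFP Low and RFP (SD, n = 3), and the groups overlapped.

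Runx2, a runt-family factor induced in luteinizing granulosa cells, was at 3.23, 5.59 and 1.66 CPM in GFP High 1, 2 and 3, 4.06, 4.34 and 4.62 CPM in GFP Low 1, 2 and 3, and 4.18, 3.56 and 3.94 CPM in RFP 1, 2 and 3. Runx2 was highest in GFP High 2, where the 12-gene sum was lowest. Its exons share 519 bp with the opposite-strand gene Runx2os1, which had up to 82 counts, and strand use in the counting is not given in the sources used here. Kitl was at 1.31, 2.19 and 1.75 CPM in GFP High 1, 2 and 3, 1.85, 2.03 and 1.70 CPM in GFP Low 1, 2 and 3, and 2.01, 1.76 and 2.64 CPM in RFP 1, 2 and 3. The lowest Kitl value was in GFP High 1, one of the 3 libraries with the most co-varying RNA. The highest library exceeded the median library by 1.33 times for Nr5a2, 1.49 for Cyp19a1, 1.38 for Runx2 and 1.43 for Kitl, against 20.2 for Tnfaip6 and 8.13 for Vcan. By the rule that the highest library be at 1 CPM or more and at least 10 times the median library, 12 members varied strongly; 8 of them are co-varying genes and the other 4 are Adamts1, Cyp11a1, Lhcgr and Sfrp4. For Inha, Adamts1, Lhcgr and Sfrp4 the median library was at 0, so no ratio exists and reaching 1 CPM was enough, and the median libraries of Inhbb and Nr5a1 held fewer than 3 counts.

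**Figure D4:**
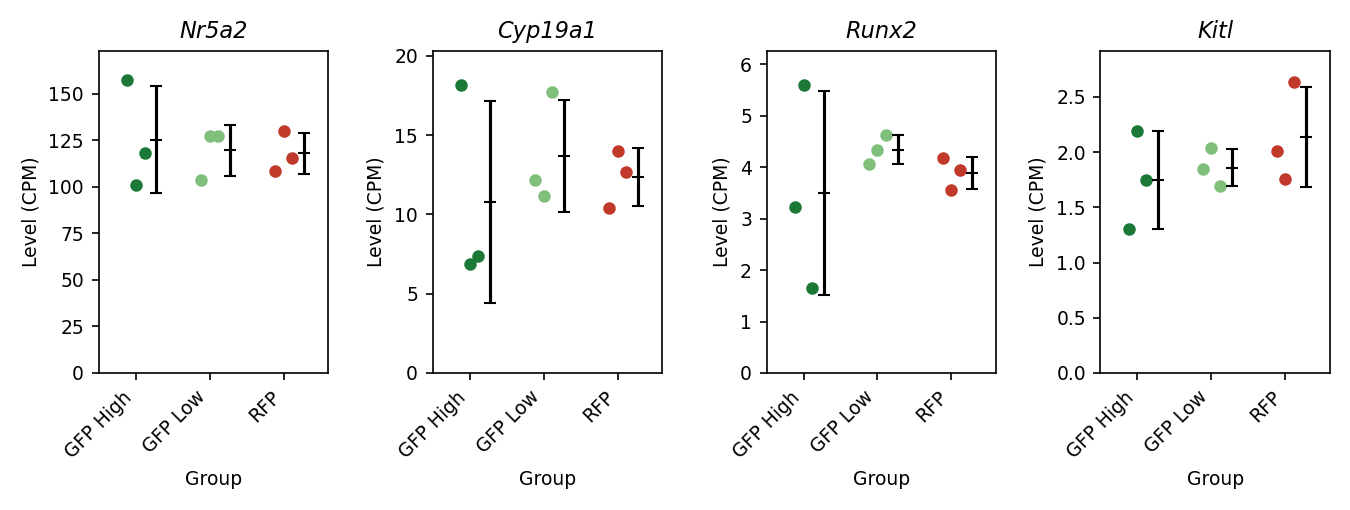
CPM of Nr5a2, Cyp19a1, Runx2 and Kitl (1 panel each, vertical axes from 0) by group, with points for libraries and, beside them, the mean and SD of 3 libraries. The 3 groups overlap in every panel, and the GFP High points spread most widely for Nr5a2, Cyp19a1 and Runx2.

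No member differed between groups past the threshold (edgeR quasi-likelihood test, Benjamini-Hochberg adjusted p under 0.05 over all genes tested). In GFP High against RFP, 19 members had enough counts to be tested and 0 were called, while 0.0135% of the 14829 genes tested were. No member had an unadjusted p under 0.05, which 4.09% of all genes had, and DESeq2 also called 0. In GFP Low against RFP, 22 members were tested and 0 were called, against 0.0197% of 15199 genes, and 1 member had an unadjusted p under 0.05, against 2.62% of genes; DESeq2 called 0. In GFP High against GFP Low, 17 members were tested and 0 were called, against 0% of 14785 genes, with none at an unadjusted p under 0.05, against 3.77%; DESeq2 called 0. The 3 comparisons share libraries in pairs. By DESeq2, 3 members had an unadjusted p under 0.05 in GFP High against RFP (Sfrp4 and Cyp11a1 lower and Lhcgr higher in GFP High, against 4.79% of genes), 1 in GFP Low against RFP (Cyp11a1, against 2.01%) and 0 in GFP High against GFP Low (against 4.59%). The edgeR counts at that level depended on single libraries. Without GFP High 1 they were 9 of 22 members in GFP High against RFP, against 9.78% of all genes in that fit, and 6 of 16 in GFP High against GFP Low, against 9.33%. Without GFP Low 1 the count was 7 of 23 in GFP Low against RFP, against 4.44%. In these 3 fits 0 members were called. GFP High 1 and GFP Low 1 are the libraries of their groups where the co-varying genes are highest. Leaving either out lowers its group for those genes, so these shares are no test of the members. Without RFP 2 the edgeR counts at that level were 0 of 19 members in GFP High against RFP and 3 of 22 in GFP Low against RFP. The share of all genes is not given for the fits without RFP 2, so these counts cannot be read as high or low. A member passes the filter through the libraries where it is high, so the members tested are not the whole list.

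None of the members tested had 3 libraries of one group all above or all below the 3 of the other. This was 0 of 19 members in GFP High against RFP, where 12.1% of genes tested did not overlap, 0 of 22 in GFP Low against RFP, where the share was 7.72%, and 0 of 17 in GFP High against GFP Low, where it was 11.7%. Standard errors were derived from each estimate and the F value of its edgeR test, and were not fitted separately. On the log2 scale those of the members tested reached 2.03 for GFP High against RFP (lowest 0.16), 1.56 for GFP Low against RFP (lowest 0.11) and 2.05 for GFP High against GFP Low (lowest 0.16). The median log2 difference over the members tested was -0.41 in GFP High against RFP (5 higher and 14 lower), -0.37 in GFP Low against RFP (6 higher and 16 lower) and -0.07 in GFP High against GFP Low (7 higher and 10 lower). Over all genes tested the median lay between -0.01 and 0.00. Leaving out RFP 2 changed the sign of 7 of 19 members in GFP High against RFP and of 12 of 22 in GFP Low against RFP.

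**Figure D5:**
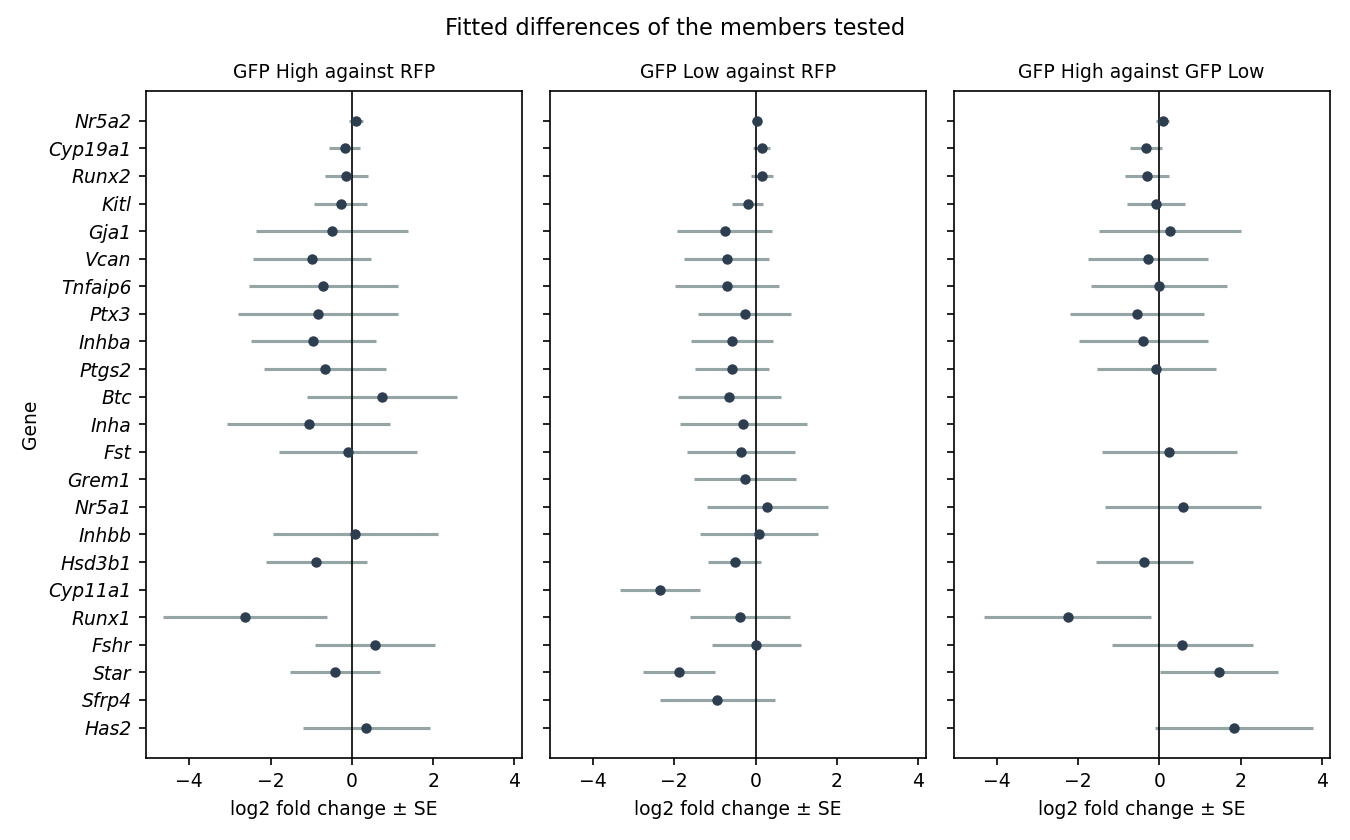
Fitted log2 fold change (points) with its standard error (bars, derived from the edgeR test) for each member tested, in GFP High against RFP, GFP Low against RFP and GFP High against GFP Low, with genes in the order of the classes. The bars are shortest for Nr5a2 and Cyp19a1 and span several log2 units for most co-varying genes, and no member was called.

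The 4 members present in every library gave the narrowest estimates. Nr5a2 differed by 0.10 (SE 0.16) on the log2 scale in GFP High against RFP, by 0.02 (SE 0.11) in GFP Low against RFP and by 0.08 (SE 0.16) in GFP High against GFP Low. Cyp19a1 differed by -0.18 (SE 0.39), 0.15 (SE 0.21) and -0.33 (SE 0.40) in the same order. Without GFP High 1, its highest library, Cyp19a1 was at -0.79 on the log2 scale in GFP High against RFP (edgeR adjusted p = 0.464) and at -0.94 in GFP High against GFP Low (edgeR adjusted p = 0.520). Runx2 differed by -0.14 (SE 0.53), 0.16 (SE 0.26) and -0.30 (SE 0.53), and Kitl by -0.27 (SE 0.66), -0.20 (SE 0.38) and -0.08 (SE 0.71). All 12 of these estimates were smaller than their standard error, which restates the test because the standard error was derived from it. Their edgeR adjusted p-values were between 0.997 and 1.00.

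The single member with an unadjusted p under 0.05 by edgeR on all 6 libraries was Cyp11a1, with a log2 difference of -2.35 (SE 0.99) in GFP Low against RFP (edgeR adjusted p = 1.00). It rested on the 85 counts of RFP 1: without that library the difference was -0.60 (edgeR adjusted p = 1.00). Star differed by -1.88 (SE 0.89) in the same comparison (edgeR adjusted p = 1.00). Adamts1, which did not pass the filter on low counts, was called lower in GFP Low than in RFP when no filter was used (edgeR adjusted p = 0.0294), on 47, 11 and 0 counts in the RFP libraries. It was 1 of 34 members in that fit. The share of all genes called without a filter is not given, so this call cannot be read as unusual. In the authors' deposited table the lowest adjusted p of any member was 0.366, for Sfrp4 in GFP High against RFP.

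The receptors and enzymes that work with the members were mostly present in all libraries at steady levels. Of the 24 genes on this pathway list, 18 were at 1 CPM or more in every library and 5 (Erbb2, Ptges, Ptger2, Inhbe and Nppc) in none. The receptor of the EGF-like ligands, Egfr, lay between 107.7 and 180.0 CPM and Kit, the receptor of Kitl, between 222.2 and 292.0 CPM. The ligands Areg and Ereg were near 0, while Btc reached 7.34 CPM in GFP High 1, 3.82 CPM in RFP 2 and 2.67 CPM in GFP Low 1. Elsewhere Btc was at 0.494 CPM or less. The connexin of the oocyte, Gja4, was at 616.9 to 980.8 CPM, including 980.8 CPM in GFP High 2, where Gja1 was at 0. In each of the 3 comparisons 19 pathway genes were tested and 0 were called by edgeR in either direction.

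Cumulus and granulosa genes outside the list showed the same division. Of 19 such genes, 18 were found, and 8 were at 1 CPM or more in every library: Serpine2, Igfbp5, Fdx1, Col4a1, Col4a2, Gata4, Scarb1 and Bsg. Nts, which encodes neurotensin, followed the co-varying members, with 9.77, 6.21 and 8.57 CPM in GFP High 1, GFP Low 1 and RFP 2, 1.06 CPM in RFP 1 and at most 0.445 CPM elsewhere. Genes common to many somatic cells were high in RFP 1 too. Vim was at 10.1, 8.37, 12.6 and 10.6 CPM in GFP High 1, GFP Low 1, RFP 2 and RFP 1, so RFP 1 lay within the range of the other 3 for Vim but had a 12-gene sum of 18.8 CPM where theirs were 60.9 to 89.6 CPM. That the 12-gene sum of RFP 1 was below theirs follows from how the 12 genes were set apart.

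The non-member genes most like the summed matrix genes were found by Pearson's r of log2(CPM + 1) over the 9 libraries, among 62 genes that reached 10 CPM and ranged over at least 3 log2 units. The 3 members in that set were Vcan, Gja1 and Tnfaip6, with r of 0.99, 0.96 and 0.94, of which Vcan and Tnfaip6 are part of the sum. The 10 leading non-members were Nupr1 (r = 0.98), Ephx2 (0.98), Thbs1 (0.98), Slc7a8 (0.97), Gm26917 (0.96), Scd2 (0.95), Crim1 (0.95), Vim (0.94), Cald1 (0.93) and Ctsl (0.91). These values are descriptive, since the same 9 libraries and their depths enter each. The highest 3 libraries were GFP High 1, GFP Low 1 and RFP 2 in 16 of the 62 genes (25.8%), so most genes that ranged this widely had another order. Thbs1, which encodes thrombospondin 1, was at 14.7, 21.4 and 18.9 CPM in GFP High 1, GFP Low 1 and RFP 2, 4.83 CPM in RFP 1 and 3.58 CPM or less in the other libraries.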

How the data were processed

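Per the labels, poly-A RNA of pooled oocytes gave paired-end libraries. The authors deposited 1 table for each pair of groups, with raw counts per gene, a log2 fold change, a p-value and an adjusted p-value, and per the file headers a gene length. The submitters' processing notes name fastp, HISAT2 2.0.5, featureCounts 1.5.0-p3, DESeq2 1.20.0 and mm10, without their settings. The 3 tables were joined by gene identifier, with 0 for 178 genes that a table lacked, and all per-sample columns were assigned by name. CPM used TMM factors over the 9 libraries. Each comparison was fitted on its 6 libraries with edgeR 4.0.16 (R 4.3.3) after filterByExpr, by the quasi-likelihood test with Benjamini-Hochberg adjustment over all genes tested and a threshold of 0.05. DESeq2 1.42.0 was an alternative. The edgeR script was tested on simulated data. The members and lists were chosen with earlier results of these data known. By the naming rule, library values are given for members at 1 CPM or more in all libraries or reaching 10 CPM, and the 10 most alike non-members are named; counts of further members were added after their values were seen. Gene coordinates are the deposited ones; 29287 of 30134 identifiers matched GENCODE M21 (GRCm38) exactly. Cell type lists also covered endothelium, immune cells, oviduct epithelium and red cells; none of the 4 red cell genes was matched and they were not analysed here. The labels name no molecular identifiers, so limits from counts cover counting error only. The deposited normalised and FPKM columns were not used.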

Additional observations from a re-analysis of the deposited data

How the results depend on the processing

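The count of members called stayed at 0 in the 3 comparisons with DESeq2, with DESeq2 size factors in edgeR, in a fit of all 9 libraries, and without each library in turn (0 to 0). It also stayed at 0 without GFP High 1, GFP Low 1 and RFP 2 together, an alternative chosen after seeing the data that left 10, 16 and 10 members tested. Without a filter on low counts, 1 member was called in GFP Low against RFP: Adamts1 (edgeR adjusted p = 0.0294), whose GFP Low libraries are all at 0. The share of all genes called in that unfiltered fit is not given. A replicate block called 0 members in each comparison but changed the sign of 4 of 19, 9 of 22 and 2 of 17 members; deviations of same-numbered libraries correlated at -0.106 to 0.12, so the numbers were not taken as pairs. At 5 CPM, 2 members were present in all libraries instead of 4. At 20 times the median library, 7 members varied strongly instead of 12, and without each library in turn 6 to 15 did, with 6 without GFP High 2 and 7 without GFP High 3 or RFP 3. The mean matrix sum ranged from 1.25 to 13.3 CPM in GFP High, from 2.87 to 14.5 CPM in GFP Low and from 6.43 to 24.6 CPM in RFP without single libraries.
Small differences turned sign without single libraries. Nr5a2 ran from -0.10 (without GFP High 1) to 0.23 for GFP High against RFP, from -0.0386 (without RFP 1; -0.0234 and -0.0271 without GFP Low 2 and 3) to 0.11 for GFP Low against RFP, and from -0.13 (without GFP High 1; -0.0143 without GFP Low 1) to 0.21 for GFP High against GFP Low. Cyp19a1 ran from -0.79 to 0.0611 (without GFP High 2; 0.0261 without GFP High 3) for GFP High against RFP, and from -0.0819 (without GFP Low 3) to 0.28 for GFP Low against RFP. For GFP High against RFP, Runx2 ran from -0.66 to 0.19 and, for GFP High against GFP Low, from -0.82 to 0.0275, both highest without GFP High 3. Kitl ran from -0.28 to 0.0828 (without GFP High 1) for GFP High against GFP Low, and Star from -1.58 to 0.30 (without RFP 1) for GFP High against RFP. Without GFP High 1, GFP Low 1 and RFP 2 together, Nr5a2 was at -0.0212 for GFP High against RFP. For GFP High against GFP Low, it was then at -0.21 and Kitl at 0.0833. The cause was not tested. Genes of a few counts are limited by depth, since 3 counts allow up to 0.154 CPM.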

Other observations

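Outside the named lists, 1 gene was picked after its values were seen because of how sharply it separated the libraries. Hist1h2al, a histone H2A sequence annotated as a processed pseudogene, was at 86.9, 87.9 and 135.0 CPM in GFP High 1, GFP Low 1 and RFP 2, and at 0.433 CPM or less in the other 6 libraries. RFP 1, with the next highest sum of the 12 co-varying genes, held 0.0760 CPM of it. Its r with the summed matrix genes was 0.84. Reads of near-identical histone genes may be split between copies, so its level is uncertain.

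The lincRNA Gm26917 was the most abundant of the genes most like the matrix genes and did not set RFP 1 apart: it was at 241.7, 183.8 and 189.7 CPM in GFP High 1, GFP Low 1 and RFP 2 and at 169.8 CPM in RFP 1, against 0.324 CPM in GFP High 2 and 3.23 CPM in RFP 3. Arid5b, a DNA-binding protein also picked after its values were seen, was at 3.81 CPM in GFP High 2 and between 93.4 and 292.4 CPM in the other 8 libraries, although its r with the matrix genes was only 0.67.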
